A study of Mus musculus with 2 samples.

Results

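Open chromatin at 10 genes of the NF-κB system, of 19459 genes with a peak, was compared between regulatory T (Treg) cells of mice with a Treg specific knockout of transketolase (TKT cKO) and of wild type (WT) mice. The genes encode the 5 subunits (Rel, Rela, Relb, Nfkb1 and Nfkb2), the cytoplasmic inhibitors Nfkbia and Nfkbie, the nuclear inhibitor-like proteins Nfkbid and Nfkbiz, and the ubiquitin-editing enzyme A20 (Tnfaip3). Their peaks, with coordinates in build mm10, were the rows of both deposited ATAC-seq peak lists whose assigned gene was one of these symbols. This gave 26 of 19680 peaks in the TKT cKO list and 37 of 34440 peaks in the WT list. All 10 genes had at least 1 peak in each list. Of the 19459 genes with a peak, 14043 had a peak in the cKO list and 19215 in the WT list.

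ATAC-seq marks accessible DNA through insertion of adapters by the Tn5 transposase. The TKT cKO library came from Treg cells of Foxp3cre/+ TKTfl/fl females, labelled as a Treg specific knockout of Tkt, the gene of an enzyme of the non-oxidative pentose phosphate pathway. The WT library came from Foxp3cre/+ females labelled wild type, so both groups carry a single Foxp3-driven Cre allele and differ in the floxed Tkt alleles. The mice were C57BL/6, aged 7 weeks and untreated. Spleen and lymph node were the source of the CD4+CD25+YFP+ cells, which were isolated by flow cytometry, with 50000 per library. The females are called chimeric in the labels, and how much Tkt was lost in the gated cells was not measured by these files. How many mice were pooled is not given in the sources used here.

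There was 1 library per genotype, so no difference below has a replicate check and no test of the genotypes was possible. By its title, the series asks what part this branch of sugar metabolism has in Treg function. Read depth is unknown, and a region missing from a list cannot be told from one below the peak caller's threshold. In bulk chromatin, a site open in fewer cells and a site less open in each cell cannot be told apart either. Of 8 Treg and CD4 T cell marker genes, 7 had peaks in both lists, among them Foxp3 with 2 in each, and Tnfrsf18 was assigned none. Of 5 B cell markers only Cd79a had a peak, 1 in each list. Of 5 CD8 T and NK cell markers, Cd8b1 and Eomes had 1 peak in each list. Among the myeloid and erythroid markers, Cd14 and Klf1 had a peak in both lists, Lyz2 and Gata1 in the cKO list alone, and Spi1 in the WT list alone. Ms4a1, Pax5, Cd8a, Csf1r, Itgam and Hba-a1 had no peak in either list. The part of other cells in the results below was not tested.

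NF-κB factors are dimers of Rel-family proteins that bind κB sites in DNA. In resting cells inhibitors of the IκB family hold them in the cytoplasm. Signals from the T cell receptor, CD28 and TNF-family receptors activate the IκB kinase complex, which marks the inhibitor for destruction and lets the dimer enter the nucleus. The genes of several inhibitors and subunits are themselves NF-κB targets, which closes feedback loops. In mouse Treg cells c-Rel, the product of Rel, is needed for thymic development and acts on the Foxp3 locus, and c-Rel with p65, the product of Rela, maintains mature Treg function.

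The DNA in front of these genes is shown because most of these regions were open in both libraries and hold κB sequences. RefSeq promoter sequences (build GRCm38.p6) were available for 7 of the 10 genes, with 12 start sites between them, and the 250 bases before each start site were searched on both strands for the κB consensus. This motif has 10 letters: GGG, a purine, any pair of bases, a pair of pyrimidines and CC. No other motif was searched. In the lines below, written 5′ to 3′ on the strand of the gene, capitals mark the matches, joined where they overlap. The first lines give the whole region for Rel at chr11:23770970-23771219 (minus strand), Nfkb2 at chr19:46304487-46304736 (plus strand), Nfkbia at chr12:55492648-55492897 (minus strand) and Tnfaip3 at chr10:19015411-19015660 (minus strand). The shorter lines give the matches of Nfkbie at chr17:45555586-45555611 and Nfkbid at chr7:30422172-30422197 and chr7:30422217-30422242 (all plus strand) with 8 flanking bases on each side. Further Nfkb2 matches, before later start sites at chr19:46305459-46305468 and chr19:46305705-46305714 (plus strand), are counted below but not printed.
Rel: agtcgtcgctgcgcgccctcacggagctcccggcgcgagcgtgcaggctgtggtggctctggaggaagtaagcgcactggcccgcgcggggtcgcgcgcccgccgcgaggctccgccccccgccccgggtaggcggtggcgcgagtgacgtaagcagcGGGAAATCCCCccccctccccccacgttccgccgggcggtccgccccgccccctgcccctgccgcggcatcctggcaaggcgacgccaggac
Nfkb2: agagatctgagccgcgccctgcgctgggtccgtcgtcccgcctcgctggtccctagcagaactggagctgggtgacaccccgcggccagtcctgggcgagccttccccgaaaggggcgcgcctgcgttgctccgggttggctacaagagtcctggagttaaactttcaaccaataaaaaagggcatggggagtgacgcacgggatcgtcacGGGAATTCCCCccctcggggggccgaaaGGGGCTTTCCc
Nfkbia: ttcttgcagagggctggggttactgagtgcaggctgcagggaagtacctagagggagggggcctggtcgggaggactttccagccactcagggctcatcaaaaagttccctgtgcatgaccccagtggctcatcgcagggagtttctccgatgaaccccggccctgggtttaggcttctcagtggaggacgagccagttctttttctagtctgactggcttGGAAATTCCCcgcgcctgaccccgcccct
Tnfaip3: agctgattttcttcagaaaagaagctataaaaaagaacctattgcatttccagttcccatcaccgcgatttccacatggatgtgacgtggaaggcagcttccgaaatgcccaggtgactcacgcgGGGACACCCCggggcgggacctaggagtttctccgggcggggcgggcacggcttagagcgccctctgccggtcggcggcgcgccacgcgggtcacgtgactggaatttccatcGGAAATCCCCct
Nfkbie: agcaaacaGGGGGATTCCggaggggc
Nfkbid, first match: cccgccctGGGACTTCCCagagcacc
Nfkbid, second match: gccgaacaGGAATTCCCCgtgcgcgg

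A κB match was present before 8 of the 12 start sites (66.7%), which belong to 6 of the 7 genes. The 7 genes were Rel, Rela, Nfkb2, Nfkbia, Nfkbie, Nfkbid and Tnfaip3, and Rela was the one without a match. Over all 32851 RefSeq start sites 7.25% held a match in the same length. Among regions inside a WT peak, 7 of 11 of these genes' start sites (63.6%) and 9.47% of all 10259 did. The regions of the NF-κB genes had a median of 16.5 CpG against 6 over all start sites, and inside a WT peak the medians were 19 and 17. Among regions with at least 10 CpG, 7 of 10 of these genes' start sites (70.0%) and 10.1% of all 12417 held a match. The matches lay at 11 separate places, and each of the 11 lay inside a cKO peak and inside a WT peak. With or without a match, 11 of the 12 regions of these genes lay inside a WT peak, beside 10259 of all 32851. Of the regions with a match, 7 of 8 lay inside a WT peak, beside 972 of 2382 over all start sites. The count of 11 thus restates that these regions were open. The 3 start sites of Nfkb2 and the 3 of Nfkbid lie close together and overlap 1 peak each, so they are not independent of each other. A match describes the letters only.

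Every one of the 10 genes kept a peak of the authors' promoter class, within 3 kb of a start site, in the knockout library. At 9 genes such a peak lay within 1 kb, and at Nfkb1 only 1 to 2 kb away. Of the 12 peaks called in WT alone, 11 lay outside the promoter class (91.7%, beside 74.0% of all 15127 such peaks) and 9 had a score below the WT median (75.0%, beside 86.3%). Counting an overlap of at least 1 bp as shared, 25 of the 26 cKO peaks were shared (96.2%, Wilson 95% interval 81.1 to 99.3), where the share over all cKO peaks was 97.6%. From the WT side 25 of 37 peaks were shared (67.6%, 51.5 to 80.4), where the share over all WT peaks was 56.1%. The background share lies inside the interval in both directions. These intervals cover counting error only. A promoter-class peak, within 3 kb of a transcription start site (TSS) in the authors' annotation, was present for all 10 genes in both lists, against 77.0% of the 13794 genes with such a WT peak. The map of peaks along the genes shows where the shared and unshared peaks lie.

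**Figure D1:**
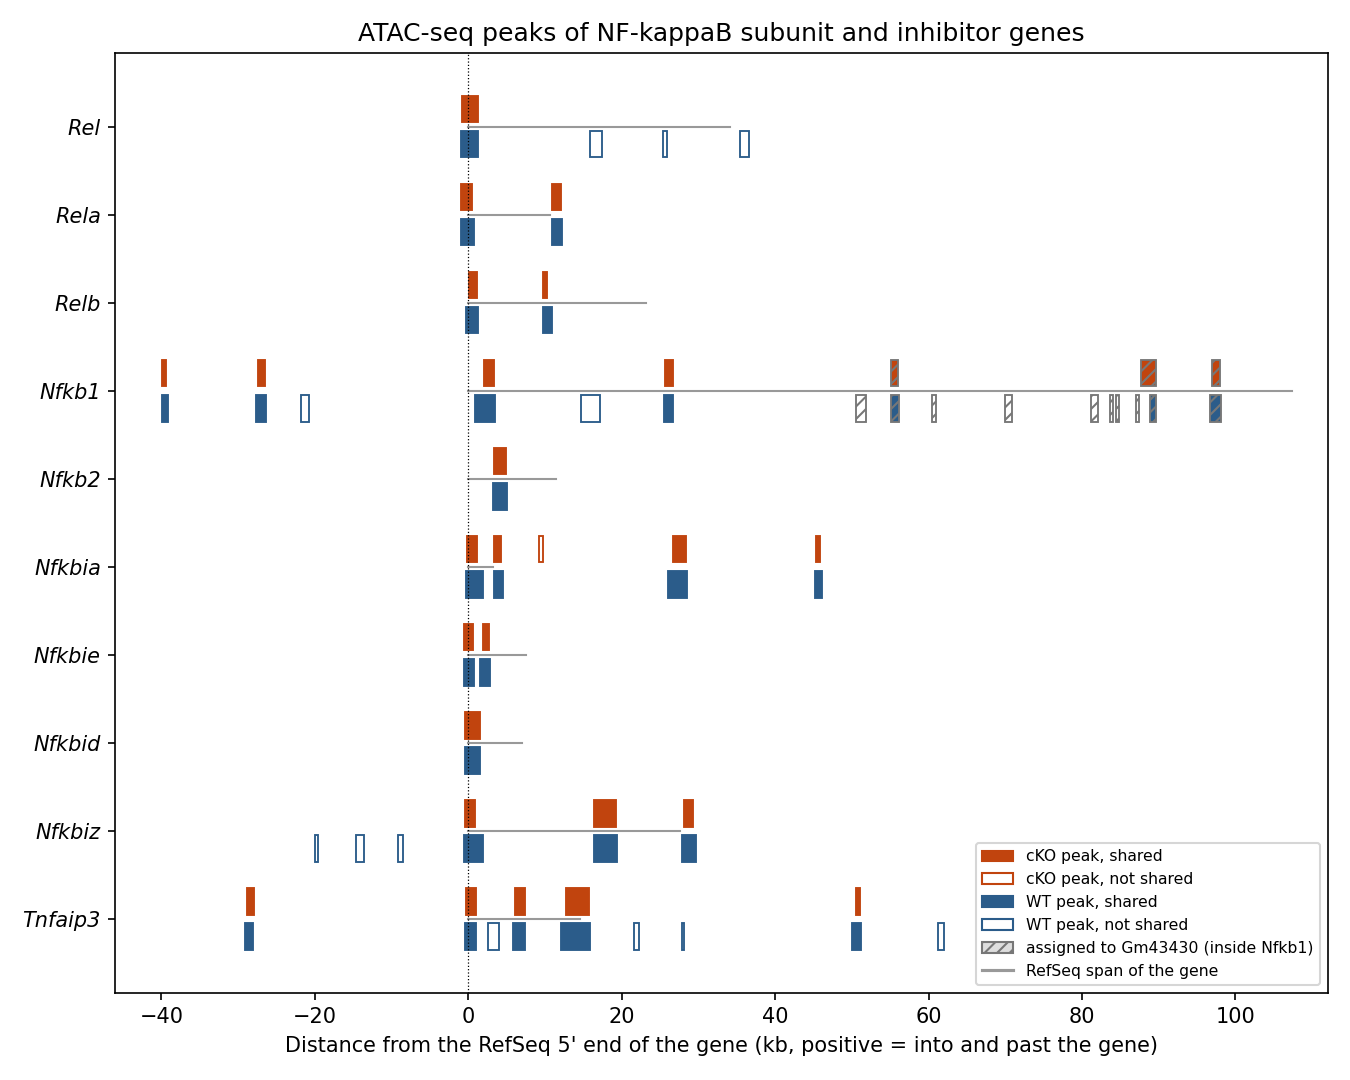
Position of every peak assigned to the 10 genes, as distance in kb from the RefSeq 5′ end of the gene, with the cKO library above the WT library; filled boxes overlap a peak of the other library, open boxes do not, and hatched boxes are peaks inside Nfkb1 that the authors assigned to the predicted gene Gm43430. Rel, Nfkb1, Nfkbiz and Tnfaip3 hold all 12 open WT boxes of these genes, and Nfkbia holds the 1 open cKO box.

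By class, 14 of 15 promoter-class WT peaks of these genes were shared (93.3%, 70.2 to 98.8), beside 74.3% of all promoter-class WT peaks. Peaks of the other classes were shared at 11 of 22 (50.0%, 30.7 to 69.3), beside 41.4%. Score divided the peaks in the same way. Of the 24 WT peaks at or above the median WT score of 28.1, 21 were shared (87.5%, beside 88.0% of all WT peaks there), and of the 13 below it 4 were shared (30.8%, beside 24.1%). With class and score combined, all 13 promoter-class peaks at or above the median were shared, beside 93.3% of all such peaks, and so were 8 of 11 peaks of other classes there, beside 79.3%. Below the median 1 of 2 promoter-class peaks and 3 of 11 others were shared, beside 30.3% and 21.9%. The interval of each of these shares contains the background share. The plot of shares by class and score sets these values side by side.

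**Figure D2:**
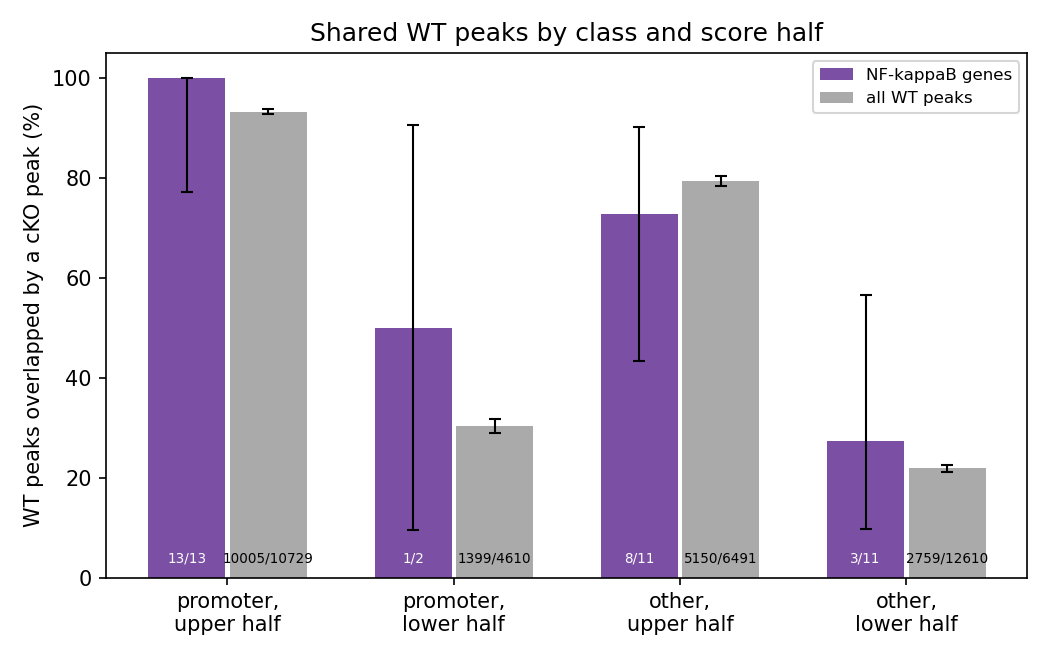
Percent of WT peaks that were shared, by annotation class and by position above or below the median WT score, for the NF-κB genes (purple) and all WT peaks (grey), with Wilson 95% intervals and the counts inside the bars. Promoter-class peaks of the NF-κB genes at or above the median were shared at 13 of 13, and their peaks of other classes below it at 3 of 11.

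Strength is given below as the score percentile, the percent of peaks in the same list with a score no higher than that of the peak. Percentiles of the lists are not compared with each other, because the lists differ in length. Rel, Rela, Relb and Nfkb2 carried their strongest peak at the promoter in each library, while the strongest cKO peak of Nfkb1 was intergenic. Nfkb2 encodes p100, the precursor of the p52 subunit of the non-canonical pathway. It had 1 peak in each list, at percentile 99.1 in cKO (rank 170 of 19680) and 97.4 in WT (rank 912 of 34440), the highest of the 10 genes in each library. The cKO peak lay at chromosome 19, 46304340 to 46305879, and the WT peak at 46304219 to 46306039, both across the TSS at 46304737. The RefSeq span of Nfkb2 begins further upstream, at 46300994, and no peak lay within 1 kb of that end in either list.

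Relb encodes the partner of p52 and had 2 peaks in each list, both shared. Its promoter peak stood at percentile 94.8 in cKO and 96.9 in WT. The cKO promoter peak, on chromosome 7 at 19628297 to 19629384, ended 54 bp short of the TSS at 19629438, while the WT peak, at 19628193 to 19629739, spanned it. The second peak lay over exon 3 of 11, at percentile 16.5 in cKO and 35.3 in WT, with a width of 530 bp in cKO and 1053 bp in WT.

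Rela also shared both of its peaks. Its promoter peak stood at percentile 84.6 in cKO and 91.5 in WT, and the peak just past the 3′ end of the gene stood at 46.8 in cKO and 75.8 in WT. The promoter peaks spanned chromosome 19, 5636549 to 5637980 in cKO and 5636514 to 5638120 in WT.

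Rel differed from Rela and Relb in the number of unshared peaks, with 3 of its 4 WT peaks lacking a cKO partner. Its promoter peak was shared and stood at percentile 85.0 in cKO and 80.9 in WT, at chromosome 11, 23769764 to 23771809 in cKO and 23769730 to 23771914 in WT. It covers the κB match shown above, which begins 92 bases before the start site. The unshared WT peaks lay in intron 3 of 9 (23753539 to 23755162, percentile 50.1), over exon 7 of 10 (23745077 to 23745571, percentile 1.82) and past the 3′ end (23734374 to 23735541, percentile 27.0). With 4 peaks, the interval of the shared share runs from 4.56 to 69.9% and includes the background of all WT peaks.

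Nfkb1 encodes p105, the precursor of the p50 subunit, and had 4 cKO peaks, all shared, against 6 WT peaks, of which 4 were shared. The shared peaks were 2 of the promoter class inside the gene and 2 upstream on chromosome 3, 26.9 and 39.8 kb before the TSS in cKO and 26.9 and 39.5 kb before it in WT. In cKO they stood between percentiles 52.2 and 58.5, and in WT between 51.6 and 83.2. One unshared WT peak lay 21.2 kb upstream at percentile 13.7. The other lay in intron 1 of 24, at 135674765 to 135677312 and percentile 40.8, and was 2548 bp wide. Of the 456 WT peaks of at least that width, 443 were shared (97.1%), and this one was among the 13 that were not. That limit was taken from this peak itself and takes no account of score. Of all WT peaks outside the promoter class and below the median score, 21.9% were shared.

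No peak spanned the 5′ end of Nfkb1 in either library. The nearest cKO peak ended 2012 bp from the RefSeq end at 135691969, and the nearest WT peak 926 bp from it. These are partners of each other, at 135688657 to 135689957 in cKO and 135688546 to 135691043 in WT. The cKO peak was 1301 bp wide against 2498 bp in WT, and 1086 bp of the difference lay on the side of the TSS. For this reason the authors' class is 1 to 2 kb in cKO and within 1 kb in WT, and Nfkb1 was the only one of the 10 genes without a cKO peak in the class within 1 kb of a TSS.

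The count for Nfkb1 depends on which gene a peak is assigned to. Inside its RefSeq span, 135584655 to 135691969, the authors assigned 3 cKO peaks and 10 WT peaks to the predicted gene Gm43430. All 3 of these cKO peaks had a WT partner, and 3 of the 10 WT peaks had a cKO partner. With them counted for Nfkb1, the gene had 7 cKO peaks, all shared, and 16 WT peaks, of which 7 were shared (43.8%, 23.1 to 66.8), and the unshared WT peaks of the 10 genes numbered 19 in place of 12. The strongest of the added unshared peaks lay in intron 12 of 24 at 135609867 to 135610799 and percentile 58.3. No other member had a peak inside its span that was assigned elsewhere.

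**Figure D3:**
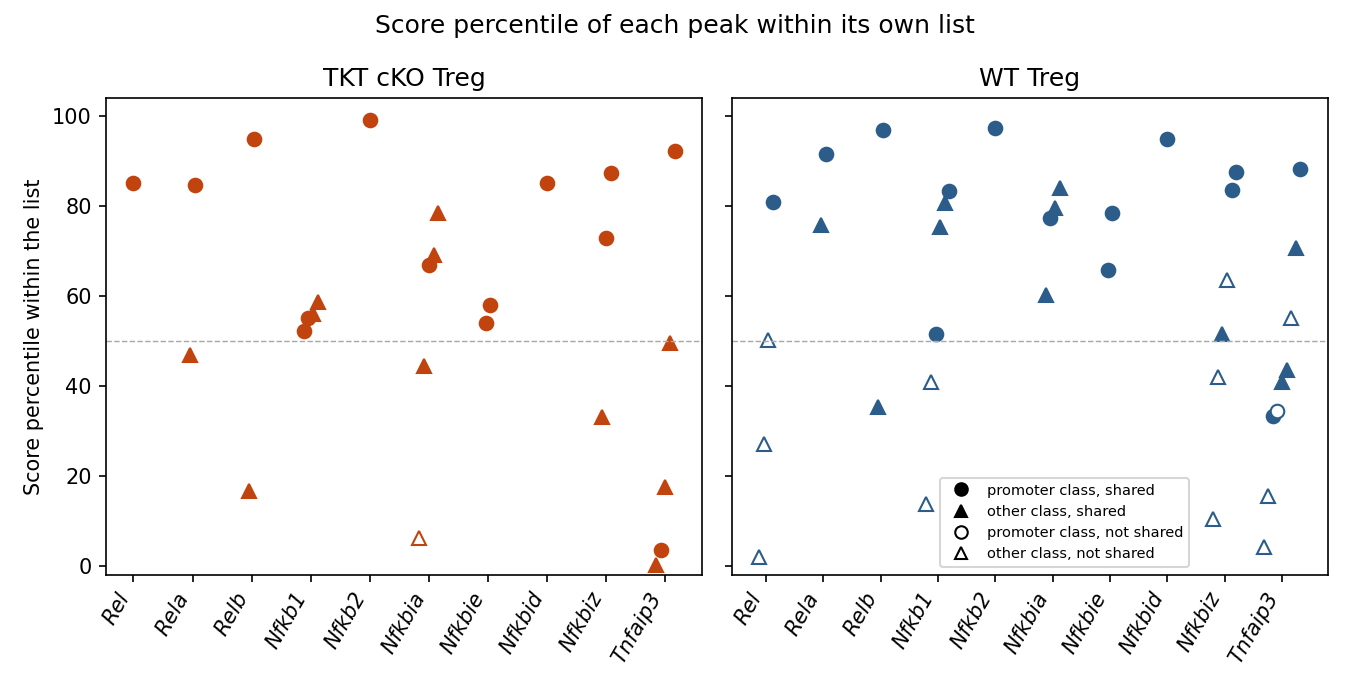
Score percentile of each peak within its own list, for the 10 genes, with the cKO library on the left and the WT library on the right; circles are promoter-class peaks, triangles other classes, filled symbols are shared and open symbols are not, and the dashed line marks the median of each list. Shared WT peaks stand between percentiles 33.3 and 97.4 and unshared WT peaks between 1.82 and 63.5.

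The cytoplasmic inhibitor genes shared all of their WT peaks. Nfkbia encodes IκBα, an inhibitor that is rapidly resynthesised after NF-κB activation. It had 5 cKO peaks, of which 4 were shared, and 4 WT peaks, all shared. The promoter peak stood at percentile 66.9 in cKO and 77.2 in WT. Further shared peaks lay at the 3′ end and at 2 sites downstream of the gene, at 55464255 to 55465998 and 55446747 to 55447373 on chromosome 12 in cKO and at 55464103 to 55466576 and 55446516 to 55447450 in WT. The most distant one, about 45 kb past the TSS (45.3 kb in cKO, 45.2 kb in WT), had the highest percentile of this gene in each library, 78.3 in cKO and 83.9 in WT.

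Nfkbia held the only cKO peak of these genes without a WT partner. It lay 9.21 kb past the TSS, at 55482899 to 55483435, with a width of 537 bp and percentile 6.12. The narrowest peak of the whole cKO list had 465 bp. The RefSeq region before the Nfkbia start site was covered in part, up to 55492812 in cKO and 55492886 in WT, and the κB match at 55492667 to 55492676 lay inside both peaks.

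Nfkbie encodes IκBε, an inhibitor with a role in retaining c-Rel and p65. It had 2 peaks of the promoter class in each list, both shared. The peak across the TSS, on chromosome 17, stood at percentile 58.1 in cKO and 78.4 in WT, with a width of 1212 bp in cKO and 1311 bp in WT. The other, 1.87 kb into the gene in cKO and 1.53 kb in WT, stood at 54.0 in cKO and 65.8 in WT.

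The nuclear proteins of the family gave contrasting counts. Nfkbid encodes IκBNS, which in mice supports the induction of Foxp3 in Treg precursors. Its only peak in each list was a broad promoter peak of 1879 bp in cKO and 2054 bp in WT, at percentile 85.1 in cKO and 94.9 in WT. It covers the 2 κB matches shown above, and no other peak was assigned to the gene.

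Nfkbiz encodes IκBζ, a cofactor that acts in the nucleus on secondary response genes. It had 3 cKO peaks, all shared, and 6 WT peaks, of which 3 were shared. The shared peaks lay at the outer start site (percentile 87.4 in cKO, 87.6 in WT), at an internal start site (72.8 in cKO, 83.5 in WT) and at the 3′ end (33.0 in cKO, 51.4 in WT). The peak at the internal start site was broad, at 2872 bp in cKO and 2987 bp in WT. All 3 unshared WT peaks lay upstream on chromosome 16, in introns 4 and 5 of the neighbouring gene Nxpe3, 8.57, 13.7 and 19.6 kb before the TSS. Their percentiles were 10.4, 63.5 and 42.0. The middle one, at 55852581 to 55853576, was the strongest unshared WT peak of the 10 genes. At or above its percentile, 95.7% of all 12564 WT peaks were shared. That limit was taken from this peak itself, and the set includes promoter-class peaks. Of all WT peaks outside the promoter class at or above the median score, 79.3% were shared.

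Tnfaip3 encodes A20, which removes and edits ubiquitin chains upstream of the IκB kinases and ends the signal. It had 5 peaks in cKO, as many as Nfkbia, and 9 in WT, the most of the 10 genes, and 5 of the 9 WT peaks were shared. The promoter peak at the outer TSS (19015410 on chromosome 10) stood at percentile 92.3 in cKO and 88.2 in WT, and lay at 19014398 to 19015736 in cKO and 19014385 to 19015830 in WT. A shared peak 28.0 kb upstream stood at 49.6 in cKO and 70.7 in WT. The shared peak over the 3′ UTR was the widest of any of the 10 genes in each library, 3056 bp in cKO and 3832 bp in WT, at percentile 17.4 in cKO and 40.8 in WT. A further shared peak inside the gene, of the class 2 to 3 kb from a TSS, stood at 3.49 in cKO and 33.3 in WT.

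At a second, internal Tnfaip3 start site (19011963) a peak was called in WT alone. It lay at 19011399 to 19012868 with percentile 34.4, and it was the only promoter-class WT peak of the 10 genes without a cKO partner. The 250 bases before this start site held 6 CpG and no κB match, against 22 CpG before the outer start site. The other unshared WT peaks were intergenic, 18.2, 24.3 and 57.8 kb past the internal TSS, at percentiles 4.07, 15.4 and 55.0. The weakest peak of these genes in the cKO list was also at Tnfaip3, a shared peak 47.1 kb past the internal TSS at percentile 0.229.

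Tnfaip3 had 9 WT peaks and 5 shared, a pattern it had in common with 8 other genes. In all, 41 genes had 9 WT peaks, with a median of 5 shared among them. The first 3 by symbol with the same counts were the predicted genes Gm14642, Gm19585 and Gm37866. This likeness rests on 2 libraries and on counts alone.

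The shared peaks were narrower in the knockout library at every pair. The cKO peak was narrower than its WT partner in 25 of 25 pairs, beside 84.0% of all 19313 pairs, and lay wholly inside it in 21 of 25 (84.0%), beside 64.8%. The cKO width was 76.3% of the WT width in the median pair (range 44.5 to 96.2%), beside 84.0% over all pairs. The promoter peaks of Nfkbiz (96.2%, internal start site), Rel (93.6%), Tnfaip3 (92.6%), Nfkbie (92.4%) and Nfkbid (91.5%) had the highest ratios. The lowest ratios were at the intergenic Tnfaip3 peak downstream (44.5%), the exonic Relb peak (50.3%), the peak nearest the Nfkb1 TSS (52.1%), the more distant upstream Nfkb1 peak (55.0%) and the outer Nfkbiz promoter (55.3%). At the outer Nfkbiz promoter 1060 bp of the difference lay on the side of the gene body and 22 bp on the upstream side, and at the Nfkbia promoter 740 bp and 74 bp. Other promoter-class pairs went the other way, with 1086 bp upstream and 111 bp on the gene-body side at Nfkb1 and 342 bp and 119 bp at the inner Nfkbie peak. Of the 14 promoter-class pairs, 8 were shortened more upstream and 6 more on the gene-body side. Across the 25 pairs the scores of the libraries followed the same order, with a Spearman correlation of 0.92, beside 0.90 over all pairs. This is a description across peaks that share their library and its depth. The part of read depth in the narrower peaks was not tested. The plot of pair widths shows every pair below the line of equal width.

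**Figure D4:**
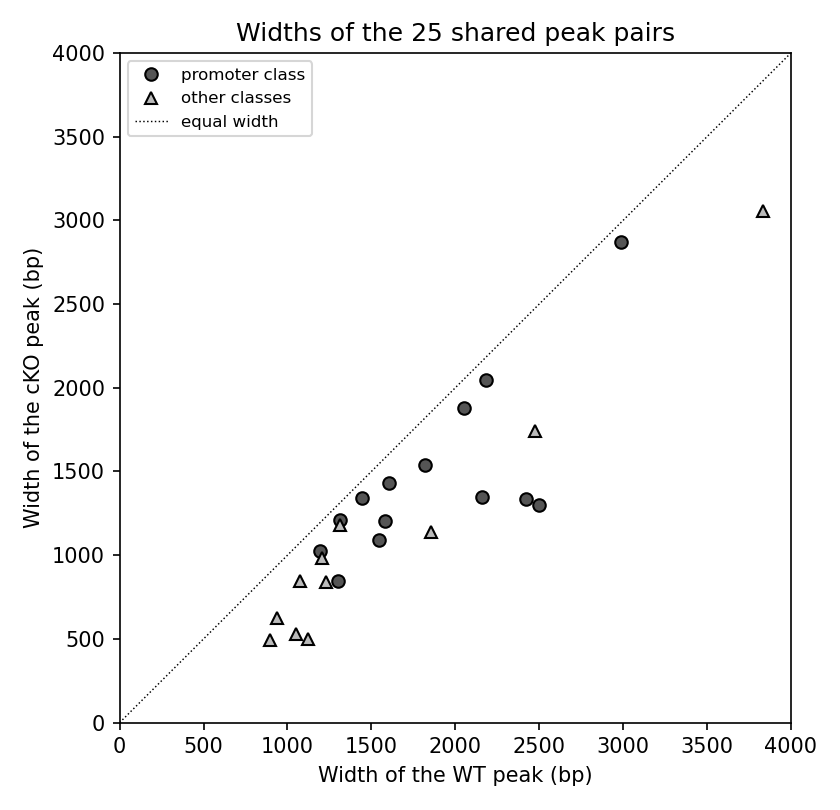
Width in bp of the cKO peak against its WT partner for the 25 shared pairs of the NF-κB genes, with promoter-class pairs as circles and other classes as triangles; the dotted line marks equal width. All 25 points lie below the line, with ratios between 44.5 and 96.2%.

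Unshared WT peaks were narrower and weaker than shared ones. The 12 unshared WT peaks had a median width of 854.5 bp (361 to 2548) and a median percentile of 30.7, and the 25 shared WT peaks 1547 bp (893 to 3832) and 78.4. Over all WT peaks the median widths were 662 bp for unshared and 1213 bp for shared ones. By class, the unshared peaks were all 5 intronic ones, 4 of 10 intergenic, 1 of 2 exonic, 1 of 4 downstream and 1 of 15 promoter-class peaks. Over all WT peaks 39.8% of intronic and 42.9% of intergenic ones were shared. An intronic share of 0 of 5 has an upper limit of 43.4%, which includes that background. By role, 10 of 15 subunit peaks, 6 of 6 cytoplasmic inhibitor peaks, 4 of 7 nuclear inhibitor peaks and 5 of 9 A20 peaks in WT were shared. The interval of the cytoplasmic inhibitors, 61.0 to 100%, lies above the 56.1% of all WT peaks and rests on 6 peaks of 2 genes. These 6 peaks stood between percentiles 60.1 and 83.9. At or above the median score 88.0% of all WT peaks were shared, which lies inside that interval. The intervals of the other roles contain the 56.1%. The intervals of all 4 roles overlap each other.

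Genes that act upstream, on the same proteins or downstream of NF-κB were described by list. Of 20 kinases and adaptors that activate NF-κB, 15 had a peak in both lists and 3 in neither. Their 26 cKO peaks all had a WT partner (beside 97.6% of all cKO peaks). Of their 42 WT peaks, 26 had a cKO partner (61.9%, 46.8 to 75.0). Ikbkg, the regulatory subunit of the IκB kinase complex, and Map3k14, the kinase of the non-canonical pathway, had 1 WT peak each, of 392 and 407 bp in intron 1, and no cKO peak. Both widths are below that of the narrowest cKO peak. Malt1, which relays the T cell receptor signal, shared 2 of its 5 WT peaks, and Traf6, a ubiquitin ligase, shared 1 of 5.

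Among 20 further inhibitors and ubiquitin editors, 18 had a peak in both lists and 2 in neither. All but 1 of their 29 cKO peaks had a WT partner (beside 97.6% of all cKO peaks). Of their 57 WT peaks, 28 had a cKO partner (49.1%, 36.6 to 61.7). The exception was a cKO peak of 480 bp in intron 4 of Birc2, a ubiquitin ligase of the TNF receptor complex, at percentile 6.76. Tnip3, which encodes an A20-binding protein, shared 2 of 8 WT peaks, and Zc3h12a, the RNase Regnase-1, shared 3 of 6. Tnip1, Traf3 and N4bp1 had 5 WT peaks each, of which 2, 3 and 2 were shared. Nfkbib, which encodes the remaining classical inhibitor IκBβ, shared its only peak, and Bcl3, a nuclear family member, shared 1 of 2. Both were named outside the rule for naming genes, after their values were seen.

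Of 26 widely used target genes, 23 had a peak in both lists and 2 in neither. All 55 of their cKO peaks had a WT partner (beside 97.6% of all cKO peaks). Of their 86 WT peaks, 57 had a cKO partner (66.3%, 55.8 to 75.4). Ier3 had 1 WT peak of 372 bp at percentile 11.3, 7.80 kb upstream, and no cKO peak. This width too is below that of the narrowest cKO peak. Ccr7, the lymph node homing receptor, shared 9 of 14 WT peaks, and Cd83 shared 4 of 7. Tnip3 stands in this list too, and Foxp3, Il2ra and Tnfrsf18 are both targets and Treg markers here. The share over all WT peaks lies inside the interval of each of the 3 lists.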

How the data were processed

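Accessible chromatin was measured by ATAC-seq in 1 TKT cKO and 1 WT Treg library. The tools listed are Trimmomatic, FastQC, BWA and MACS2, with build mm10, per the submitters' processing notes. Their versions and settings, and any duplicate removal or Tn5 offset, were not stated there. Each list, deposited by the authors per library, gives peaks with positions counted from 1, 1 assigned gene and a score. What the authors' score measures is left unnamed in the file headers, and it served here to rank or filter the peaks of 1 list at a time. Depth is unknown.

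Overlap code (Python 3.11.15, pandas 2.3.3) was tested on simulated data and compared with bedtools 2.31.1, with 0 of 19680 cKO and 0 of 34440 WT peaks differing. A peak was shared at 1 bp of overlap. Shares carry Wilson 95% intervals, which cover counting error only. Every peak of the 10 genes is described. Other genes were named if they had a WT but no cKO peak, held a cKO peak without WT partner, or were among the 3 of their list with most WT peaks; some genes under these rules are not reported here. The members and lists were chosen with earlier results of these data known. Alternatives changed the overlap, score threshold, list length, peak width, promoter window and gene assignment.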

Additional observations from a re-analysis of the deposited data

How the results depend on the processing

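No paired analysis was possible because there is 1 library per genotype, which also leaves no replicate to omit. With the WT list reduced to its strongest 19680 peaks, as many as in the cKO list, 22 of 25 WT peaks of the 10 genes were shared (88.0%, beside 83.0% of all WT peaks in that setting). The unshared WT peaks then numbered 3, with 1 each at Rel, Nfkbiz and Tnfaip3 and 0 at Nfkb1. From the cKO side 22 of 26 peaks were shared with this shorter WT list (84.6%), against 96.2% with the full WT list. The share over all cKO peaks with the shorter list is not given here. Above the median score of each list, 17 of 17 cKO peaks were shared (100%). The share over all cKO peaks with that threshold is not given here, so this value has no like background. In that setting 9809 of all WT peaks had a cKO partner, and 9841 cKO peaks stood at or above percentile 50. On the WT side 17 of 24 peaks were shared (70.8%, beside 57.0% of all WT peaks in that setting). With peaks inside the RefSeq span of a gene added, an alternative chosen after seeing the data, the unshared WT peaks numbered 19, of which 9 were at Nfkb1. Of the WT peaks counted for the 10 genes, 28 of 47 were then shared (59.6%, beside 56.1% of all WT peaks). The stricter overlap, the width minimum and the 50 kb window gave WT shares of 67.6%, 69.4% and 66.7%, inside the interval of the main value. Beside the width minimum stood 60.9% of all WT peaks of that width, and beside the 50 kb window 56.1% of all WT peaks. The share over all WT peaks at the stricter overlap is not given here. The number of genes with a promoter peak in both lists was 10 in each alternative apart from the 1 kb window, where it was 9. Read depth is unknown, so a region closed in cKO and one below the calling threshold cannot be told apart.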

Other observations

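Some open regions near these genes were assigned to other genes and stand outside the counts above. The strongest lay 47.2 kb upstream of Tnfaip3 in cKO and 47.1 kb in WT (centre of the peak), was shared, and was assigned to 1700124M09Rik. It stood at percentile 96.7 in cKO and 96.4 in WT, above the Tnfaip3 promoter peak in each list. Upstream of Rel, WT peaks centred 8.07 and 31.8 kb before the 5′ end, assigned to Gm23827, had no cKO partner (percentiles 41.9 and 3.96). Upstream of Nfkbia, a peak assigned to Gm36634 was shared (percentile 27.1 in cKO, 61.8 in WT), and another, centred 13.6 kb before the 5′ end, was called in WT alone at percentile 36.5. A wide intergenic peak centred 28.2 kb before Nfkbid, 3092 bp in cKO and 3192 bp in WT, was shared and assigned to Tyrobp. In WT alone, strong peaks were called 48.7 kb before Nfkbie at the Aars2 promoter (percentile 95.6) and 48.1 kb before Nfkbid, assigned to Lrfn3 (percentile 84.4). Which gene any of these regions acts on was not tested.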
